A study of Canis lupus familiaris with 6 samples.

Results

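Collagens, laminins and integrins are the structural proteins of the extracellular matrix and the receptors by which cells hold on to it. The transcripts described here are those whose symbol names a collagen chain, a laminin chain or an integrin subunit and whose mean over all libraries was at least 0.5 FPKM (fragments scaled by transcript length and library size, so that levels can be set side by side between genes). Of 41401 symbols, 77 had such a name, and 36 reached that level: 14 of 43 collagens, 7 of 12 laminins and 15 of 22 integrins. The other 41 are accounted for by their ranges and were not tested.

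The 6 RNA-seq libraries came from MDCK, an epithelial cell line derived from dog kidney. The mutant lines were 2 clones, clone 1 and clone 2, both labelled PRL2-/-; PRL1+/-, and the third line was wild type. Each line received PRL1 siRNA in 1 library and control siRNA in 1 library, and cells were collected for RNA 18 h after a second round of transfection. PRL1 and PRL2 are small phosphatases, encoded by PTP4A1 and PTP4A2. Each mutant line is a single clone, so a difference between a clone and wild type describes that clone. Nothing in the labels says that libraries came from separate cultures, and p-values measure the spread between these samples, which may be technical. In bulk RNA, fewer cells of a type and less RNA per cell cannot be told apart.

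Epithelial cells rest on a basement membrane, a sheet woven from type IV collagen and from laminins, which are trimers of 1 alpha, 1 beta and 1 gamma chain. Integrins are pairs of 1 alpha and 1 beta subunit, and the pair sets what a cell binds: the pairs of ITGB1 include receptors for collagen, laminin and fibronectin, those of ITGAV bind proteins with an RGD sequence and include activators of latent TGF-beta, and ITGA6 with ITGB4 anchors the hemidesmosome to laminin. COL17A1 is a transmembrane collagen of that same anchor.

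The siRNA target was lower after its siRNA in each line. PTP4A1 had 37.8 FPKM under PRL1 siRNA, against 61.7 under control siRNA, in clone 1. It had 37.8 against 69.9 FPKM in clone 2 and 33.1 against 63.5 FPKM in wild type (log2 difference -0.83 ± 0.05 SE, limma over 3 lines, adjusted p = 0.00203). PTP4A2 transcript was present in the clones at 80.4 and 56.7 FPKM under control siRNA, against 72.7 FPKM in wild type. Under PRL1 siRNA it was lower in 3 of 3 lines, at 69.1 and 48.3 FPKM in the clones and 59.0 FPKM in wild type. Over 3 lines the difference was -0.25 ± 0.03 (SE, limma, adjusted p = 0.00689), and its cause was not tested. PTP4A1 passed in neither clone against wild type over both siRNAs (0.07 in clone 1 and 0.16 in clone 2, limma, adjusted p = 0.452 and 0.119). The labels do not describe the edit, so the levels of PTP4A1 and PTP4A2 do not check the PRL1 and PRL2 genotypes. All 10 epithelial markers reached 0.5 FPKM, with a summed level of 1635 to 1951 FPKM in the clones and 1266 to 1290 FPKM in wild type. None of 6 fibroblast markers reached it (sum 0.110 to 0.411 FPKM in any library), and among 6 leukocyte markers PTPRC and CD3E were listed at 0. The endothelial marker sum was 16.3 to 25.0 FPKM in the clones, against 6.96 to 7.15 FPKM in wild type, and came mostly from FLT1. After PRL1 siRNA, the epithelial markers PAX8 and CDH16 were higher over 3 lines (0.57 and 0.82). EPCAM, CDH1, KRT18, TJP1 and OCLN were lower (limma, adjusted p = 0.00259 to 0.0438 for those named). KRT8, PAX2 and CLDN4 did not pass. The part of these marker levels in the knockdown and clone differences below was not tested. The depth in fragments is unknown from FPKM; relative to the wild-type control library, whole-fragment steps of low values gave depths of 0.766 to 0.917 for the other 5 libraries, with 42.0% to 45.3% of low-value ratios within 0.01 (log2) of the steps.

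Among collagens, COL5A2, a chain of the fibrillar type V collagen, had the highest mean (533 FPKM), followed by COL17A1 (342 FPKM), and these 2 chains held 85.7% to 90.3% of the summed collagen FPKM in each library. COL4A1 and COL4A2, the chains of the widespread type IV collagen, had means of 43.0 and 42.6 FPKM. The remaining type IV chains were near 0: COL4A3, COL4A4, COL4A5 and COL4A6 did not exceed 0.00518, 0.0448, 0.000125 and 0.0102 FPKM. COL1A1, COL1A2 and COL3A1, the main fibrillar chains of fibroblasts, did not exceed 0.0281, 0.0502 and 0.000973 FPKM. COL6A1 was measured at a mean of 1.80 FPKM without its usual partner chains, since COL6A2 did not exceed 0.00557 FPKM and COL6A3 was listed at 0.

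All 7 laminin members lay within a narrow range, with means of 20.6 FPKM (LAMB2) to 80.8 FPKM (LAMB1). They included LAMA3 and LAMB3, chains of the laminin bound by hemidesmosomes (means 61.5 and 61.6 FPKM), and LAMA5, LAMB1 and LAMC1, a trimer of kidney basement membranes (46.7, 80.8 and 65.5 FPKM). The 5 other laminin chains did not exceed 0.0141 FPKM. Among integrins, the beta subunits ITGB1 (202 FPKM), ITGB4 (191 FPKM) and ITGB3 (152 FPKM) had the highest means, and ITGA3, the alpha subunit of the main laminin receptor of the ITGB1 group, was the highest alpha subunit (114 FPKM). ITGAV had a mean of 36.0 FPKM, and the summed level of its beta partners ITGB3, ITGB5, ITGB6 and ITGB8 was 7.93 to 10.4 times its own in each library. ITGA6 was measured at 0.0492 to 0.0755 times the level of its hemidesmosome partner ITGB4. These ratios are descriptions, chosen after the values were seen. The member just inside the limit was ITGA2B (mean 0.517 FPKM), and COL15A1 (mean 0.458 FPKM) was just outside it.

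**Figure D1:**
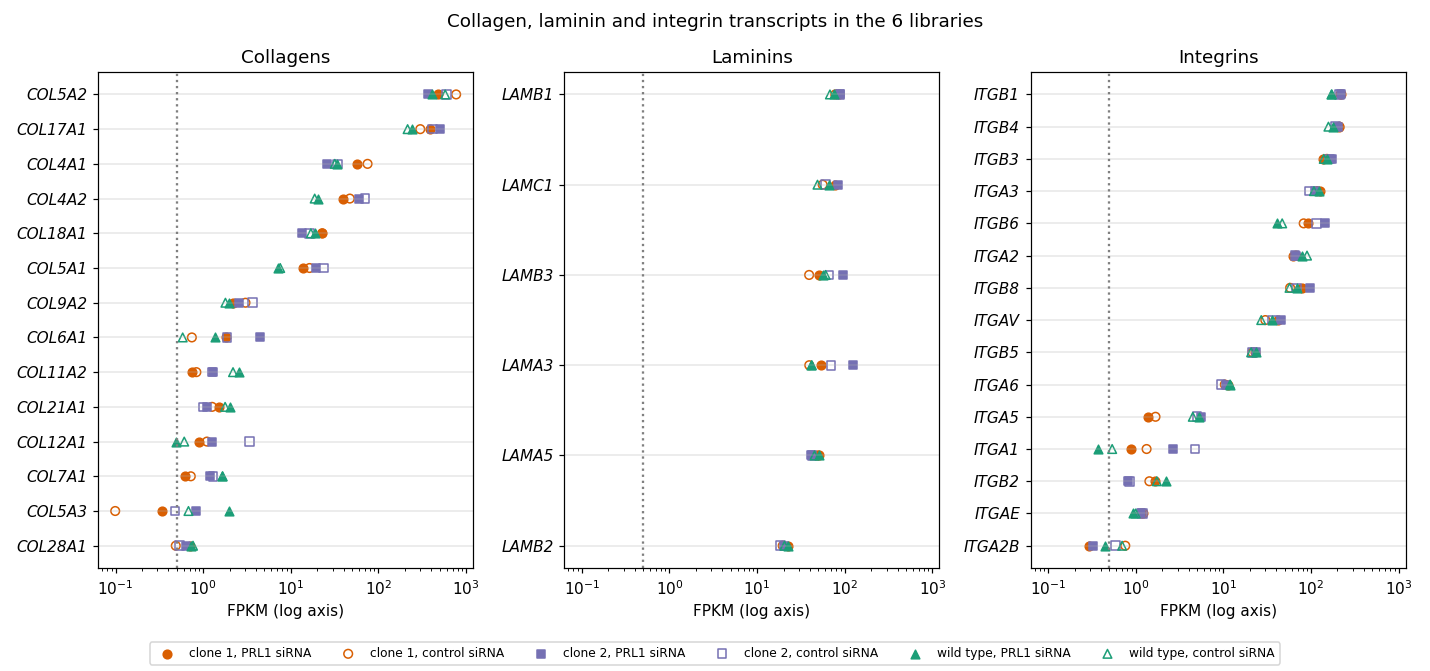
FPKM of members in each of the 6 libraries, on a log axis, with 1 panel per family. Each symbol is 1 library, the dotted line marks 0.5 FPKM, and genes are ordered by mean. COL5A2 and COL17A1 stand above all other collagens, while the laminins lie close together.

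PRL1 siRNA was compared with control siRNA within the 3 lines. After PRL1 siRNA, 14 of 36 members passed the test, 9 higher and 5 lower, or 38.9%, against 35.7% of all 13356 genes tested (16.3% higher and 19.4% lower). The share of members called was thus near that of all genes, and their median log2 difference was 0.08, against -0.00446 for all genes. The called members comprised 5 of 14 collagens, 3 of 7 laminins and 6 of 15 integrins. With no term for the line, 0 of 36 members and 358 genes passed limma at an adjusted p of 0.05, and 7 members had an unadjusted p under 0.05.

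COL5A2 had the largest fall on the log2(FPKM + 1) scale. In clone 1 it had 473 FPKM under PRL1 siRNA and 769.7 FPKM under control siRNA, in clone 2 371 and 596 FPKM, and in wild type 413 and 577 FPKM. Every PRL1 siRNA library was below every control library, and the difference was -0.62 ± 0.05 (SE; adjusted p = 0.00259, lower in 3 of 3 lines). COL5A1, the chain that pairs with COL5A2 in type V collagen, fell by less: it had 13.7, 19.2 and 7.18 FPKM under PRL1 siRNA in clone 1, clone 2 and wild type, against 16.3, 23.6 and 7.56 FPKM under control siRNA (-0.20 ± 0.06, adjusted p = 0.0453). Its 2 groups overlapped, since both wild-type libraries lay below all clone libraries.

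COL17A1 rose after PRL1 siRNA. It had 383, 498 and 239 FPKM in clone 1, clone 2 and wild type, against 300.1, 416 and 215 FPKM under control siRNA (0.25 ± 0.05, adjusted p = 0.0135). As COL5A2 fell and COL17A1 rose in the same libraries, COL17A1 made up 38.3%, 49.8% and 32.1% of the summed collagen FPKM under PRL1 siRNA, against 24.2%, 35.6% and 24.5% under control siRNA. COL6A1 had the largest rise of any member on the log2(FPKM + 1) scale, to 1.83, 4.44 and 1.36 FPKM, against 0.743, 1.86 and 0.584 FPKM under control siRNA (0.73 ± 0.09, adjusted p = 0.00448). In each line its level under PRL1 siRNA was more than double that under control siRNA, and the lowest PRL1 siRNA library lay below the control library of clone 2.

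COL5A3, a minor chain of type V collagen, also rose (0.47 ± 0.13, adjusted p = 0.0383). It had 0.338 FPKM under PRL1 siRNA and 0.0991 FPKM under control siRNA in clone 1, 0.833 and 0.478 FPKM in clone 2, and 1.95 and 0.679 FPKM in wild type. The PRL1 siRNA level was 3.41, 1.74 and 2.87 times the control level in these lines. The control siRNA mean of COL5A3 was below 0.5 FPKM, so it was included through the PRL1 siRNA libraries, where it was higher. Of the 5 collagen calls, those of COL5A2 and COL6A1 held without clone 1 (adjusted p = 0.0327 and 0.0397) and without clone 2 (0.0222 and 0.0256). Without clone 1 the adjusted p was 0.0889 for COL17A1, 0.205 for COL5A1 and 0.0819 for COL5A3, and without clone 2 it was 0.0686, 0.204 and 0.0774; COL5A3 also did not pass without wild type (0.0703).

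The type IV chains were called only when the clones were fitted alone. COL4A1 had 57.6 FPKM under PRL1 siRNA and 75.1 FPKM under control siRNA in clone 1, 25.6 and 33.9 FPKM in clone 2, and 34.0 and 31.7 FPKM in wild type. COL4A2 had 39.7 and 47.1 FPKM in clone 1, 59.9 and 70.0 FPKM in clone 2, and 20.2 and 18.7 FPKM in wild type. Both were thus lower after PRL1 siRNA in each clone and slightly higher in wild type. Over 3 lines the differences were -0.22 for COL4A1 and -0.12 for COL4A2 (adjusted p = 0.149 and 0.27). Over the 2 clones they were -0.38 ± 0.03 and -0.23 ± 0.03 (adjusted p = 0.0122 and 0.02). COL9A2, a chain of the fibril-associated type IX collagen, went the same way (-0.37 ± 0.06 over the clones, adjusted p = 0.0292; 0.08 in wild type).

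Among laminins, LAMC1 rose after PRL1 siRNA in every line. LAMC1, the gamma chain of most basement membrane laminins, had 78.1, 83.8 and 65.7 FPKM under PRL1 siRNA in clone 1, clone 2 and wild type, against 55.9, 60.5 and 48.8 FPKM under control siRNA. Every PRL1 siRNA library was above every control library. The difference was 0.45 ± 0.03 (adjusted p = 0.00221, higher in 3 of 3 lines), and it passed without clone 1 (0.0315) and without clone 2 (0.0214).

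LAMA3 and LAMB3 were called only when the clones were fitted alone. LAMA3 had 54.2 FPKM under PRL1 siRNA and 39.3 FPKM under control siRNA in clone 1, 123 and 69.4 FPKM in clone 2, and 40.7 and 42.1 FPKM in wild type. LAMB3 had 51.4 and 39.2 FPKM in clone 1, 95.1 and 66.2 FPKM in clone 2, and 57.1 and 60.5 FPKM in wild type. Both were higher after PRL1 siRNA in each clone, and in wild type the 2 libraries were close. Over 3 lines neither passed (LAMA3 0.41, adjusted p = 0.0986; LAMB3 0.27, adjusted p = 0.124), and over the clones alone both did (LAMA3 0.64 ± 0.10, adjusted p = 0.0242; LAMB3 0.45 ± 0.05, adjusted p = 0.014).

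Of the remaining chains, LAMB2, the alternative to LAMB1 in many basement membranes, rose by a small amount: 22.5, 20.4 and 22.4 FPKM under PRL1 siRNA, against 19.6, 18.4 and 20.5 FPKM under control siRNA (0.15 ± 0.04, adjusted p = 0.0305; 0.173 without clone 1 and 0.12 without clone 2). LAMB1 and LAMA5 did not pass (0.10 and 0.07, adjusted p = 0.107 and 0.31).

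**Figure D2:**
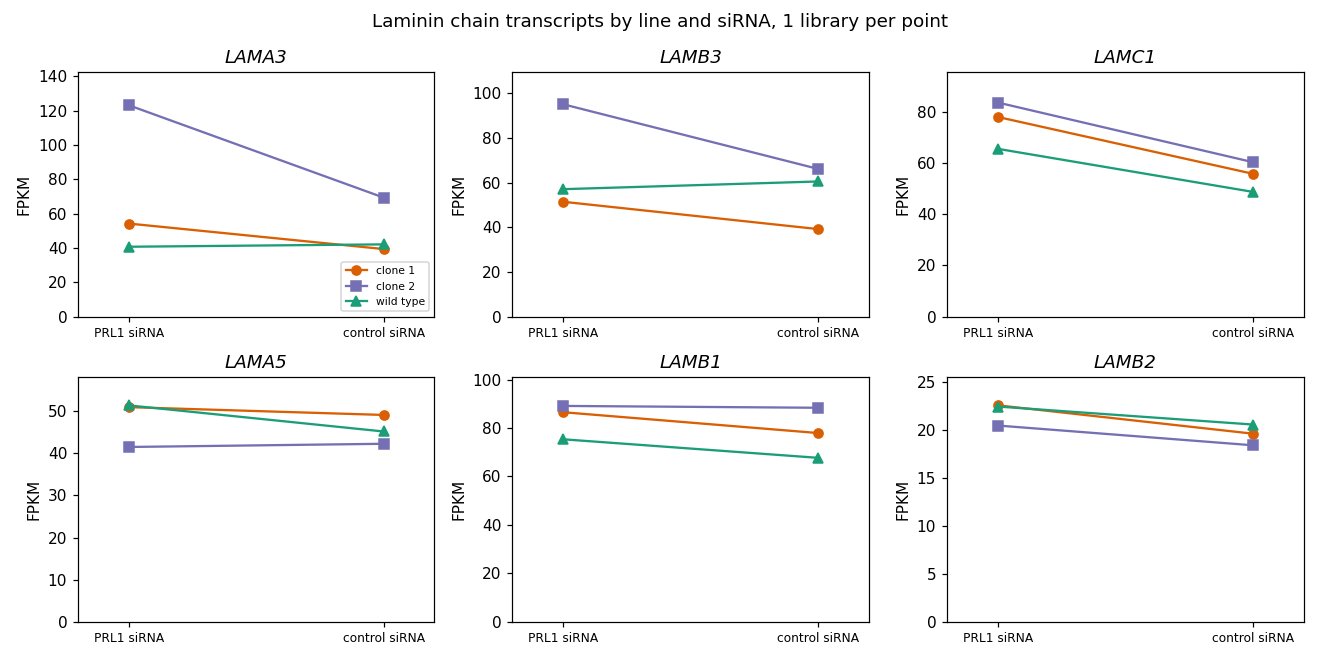
FPKM of 6 laminin chains (vertical axes from 0) under PRL1 siRNA and control siRNA; each point is 1 library and lines join the libraries of 1 cell line. LAMC1 is higher under PRL1 siRNA in every line, and LAMA3 and LAMB3 are higher under PRL1 siRNA in both clones.

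Among integrins, ITGAV and ITGB8, which together form a receptor that activates latent TGF-beta, both rose after PRL1 siRNA. ITGAV had 41.7, 45.5 and 35.6 FPKM under PRL1 siRNA in clone 1, clone 2 and wild type, against 30.1, 36.1 and 27.0 FPKM under control siRNA (0.39 ± 0.04, adjusted p = 0.00349). ITGB8 had 78.9, 96.1 and 68.4 FPKM, against 57.6, 68.6 and 56.8 FPKM (0.40 ± 0.05, adjusted p = 0.00578). Each was higher in 3 of 3 lines, though the highest control library of each, that of clone 2, lay above the wild-type library with PRL1 siRNA. The call of ITGAV held without clone 1 (adjusted p = 0.0376) and without clone 2 (0.0236), and that of ITGB8 held without clone 2 (0.0371) and was at 0.0531 without clone 1.

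ITGB6, whose pair with ITGAV also activates latent TGF-beta, differed between the lines. It had 91.5 FPKM under PRL1 siRNA and 82.3 FPKM under control siRNA in clone 1, 145 and 114 FPKM in clone 2, and 40.8 and 46.8 FPKM in wild type. It was thus higher after PRL1 siRNA in the clones, where it passed when fitted alone (0.24 ± 0.06, adjusted p = 0.0477), and lower in wild type, and over 3 lines it did not pass (0.10, adjusted p = 0.483). The other ITGAV partners differed less: ITGB5, a vitronectin receptor subunit, had 22.8, 23.4 and 23.6 FPKM under PRL1 siRNA, against 21.4, 21.5 and 20.7 FPKM under control siRNA (0.13 ± 0.04, adjusted p = 0.0497), and ITGB3 did not pass (0.02, adjusted p = 0.775).

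Of the alpha subunits that pair with ITGB1, ITGA3 rose and the collagen receptor subunit ITGA1 fell. ITGA3 had 126, 111 and 124 FPKM under PRL1 siRNA, against 117, 96.3 and 108 FPKM under control siRNA in clone 1, clone 2 and wild type (0.17 ± 0.04, adjusted p = 0.0181). ITGA1 had 0.881, 2.66 and 0.371 FPKM, against 1.33, 4.75 and 0.537 FPKM (-0.37 ± 0.11, adjusted p = 0.0457). Each moved one way in 3 of 3 lines, while the lines overlapped between siRNAs. ITGB1 itself did not pass (0.02, adjusted p = 0.664), nor did ITGA2, ITGA5, ITGA6 or ITGB4 (adjusted p = 0.165 to 0.635). ITGA2B, best known as a platelet integrin and here the lowest member, fell by 0.31 ± 0.08 (adjusted p = 0.0341). Its PRL1 siRNA mean was below 0.5 FPKM, so it was included through the control libraries, where it was higher.

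The smaller integrin calls did not hold when either clone was left out. Over all genes, calls also fell then, from 35.7% to 9.43% without clone 1 and 14.4% without clone 2. Without clone 1 the adjusted p was 0.0691 for ITGA3, 0.146 for ITGB5, 0.133 for ITGA1 and 0.111 for ITGA2B. Without clone 2 it was 0.0967, 0.162, 0.137 and 0.0824 for the same genes. Without wild type ITGA3, ITGB5 and ITGA2B did not pass (0.0507, 0.109 and 0.0669) and ITGA1 did (0.0482).

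**Figure D3:**
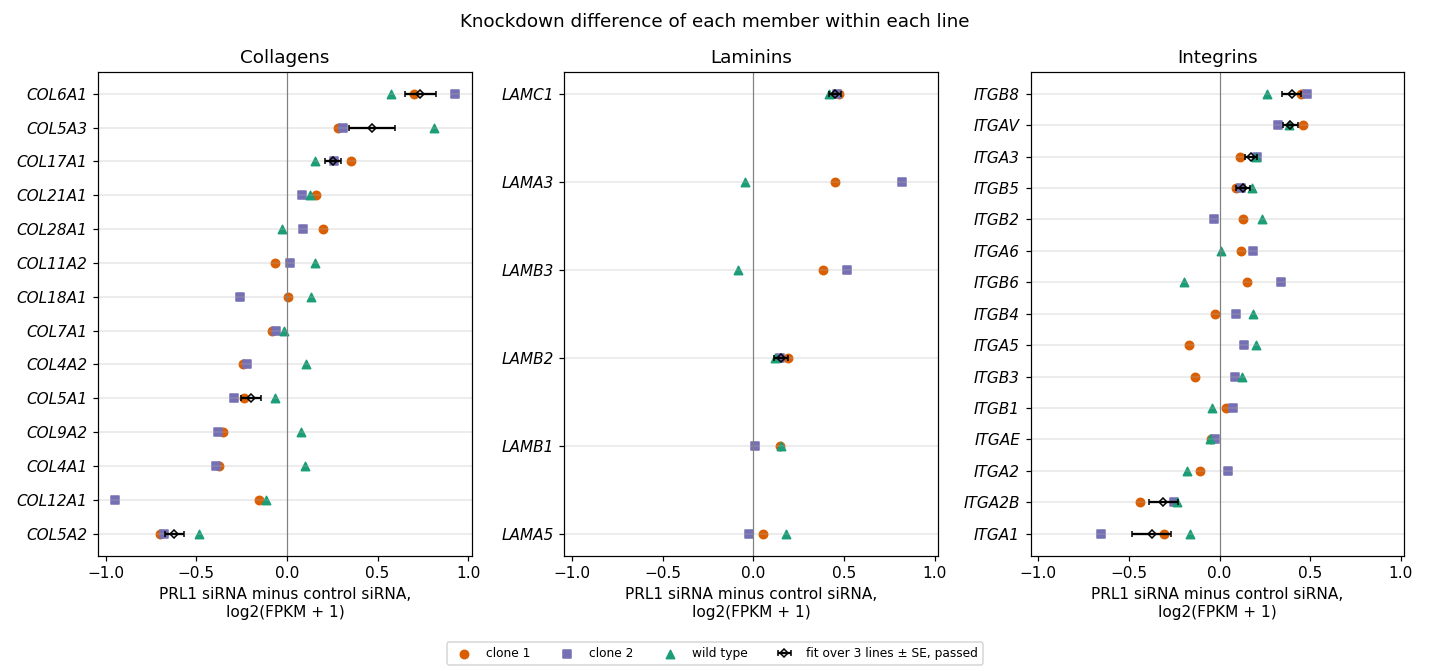
Difference between PRL1 siRNA and control siRNA, on the log2(FPKM + 1) scale, for members in clone 1, clone 2 and wild type. Black diamonds with bars are the fitted difference over 3 lines ± SE for members that passed. LAMA3, LAMB3, ITGB6, COL4A1 and COL4A2 lie on opposite sides of 0 in the clones and in wild type.

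Across the families, 20 of 36 members had the same sign in all 3 lines (55.6%, against 65.8% of all genes), and in 5 the 3 PRL1 siRNA libraries did not overlap the 3 control libraries (13.9%, against 27.9% of all genes). In the clones fitted alone, with clone as replicate block, 16 members passed (9 higher and 7 lower; 44.4%, against 27.8% of all genes), of which 10 were also among the 14. The lone wild-type pair gives no test of its own. Whether the knockdown difference itself differed between the clones and wild type was tested as an interaction: 0 of 36 members and 0 of 13356 genes passed limma (0.00% of genes), with 0 members and 169 genes at an unadjusted p under 0.05. With the replicate block, 0 members and 0 genes passed, 9 members and 1251 genes had an unadjusted p under 0.05, and the adjusted p was 0.368 for COL4A1, 0.486 for LAMB3, and 0.525 for both LAMA3 and ITGB6. The opposite directions of these genes in clones and wild type are therefore values of these libraries and were not shown to differ.

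Each clone was then compared with wild type over both siRNAs. The spread in this fit is that of the libraries within a line after the siRNA term, so it does not measure how clones vary. In clone 1, 17 of 36 members passed, 12 higher and 5 lower (47.2%, against 22.5% of all genes, 14.6% higher and 7.92% lower). In clone 2, 22 of 36 passed, 16 higher and 6 lower (61.1%, against 29.7% of all genes, 17.0% higher and 12.7% lower). In both clones the share of members called was about double the share of all genes. The 2 comparisons share the wild-type libraries. Of the members, 12 passed in both clones, 10 higher and 2 lower, and none passed with opposite signs; 14.2% of all genes passed in both with the same sign.

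COL4A2 was higher in both clones. Under PRL1 siRNA it had 39.7 FPKM in clone 1 and 59.9 FPKM in clone 2, against 20.2 FPKM in wild type. Under control siRNA it had 47.1 and 70.0 FPKM, against 18.7 FPKM. Every clone library was above both wild-type libraries, by 1.11 ± 0.09 in clone 1 (adjusted p = 0.00393) and 1.68 ± 0.09 in clone 2 (adjusted p = 0.000737).

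COL4A1, which pairs with COL4A2 in the same trimer, passed in clone 1 and not in clone 2. Under PRL1 siRNA it had 57.6 FPKM in clone 1 and 25.6 FPKM in clone 2, against 34.0 FPKM in wild type. Under control siRNA it had 75.1 and 33.9 FPKM, against 31.7 FPKM. Both libraries of clone 1 were above all others (0.98 ± 0.13, adjusted p = 0.00949), while clone 2 overlapped wild type (-0.15, adjusted p = 0.409). The difference between the clones was tested after these values were seen: clone 2 was below clone 1 by -1.13 ± 0.13 for COL4A1 (adjusted p = 0.00792) and above it by 0.57 ± 0.09 for COL4A2 (adjusted p = 0.0219). Of the 15 members called between the clones, ITGA5 alone also passed when either library of clone 1 was left out. The ratio of COL4A2 to COL4A1 was 0.690 and 0.627 in clone 1 under PRL1 siRNA and control siRNA, 2.34 and 2.07 in clone 2, and 0.595 and 0.590 in wild type. COL4A1 and COL4A2 are neighbours with no gene between them in the RefSeq annotation of the dog assembly UU_Cfam_GSD_1.0; in human and mouse they are transcribed in opposite directions from a shared promoter.

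COL5A1 and COL17A1 were also higher in both clones. Under PRL1 siRNA COL5A1 had 13.7 FPKM in clone 1 and 19.2 FPKM in clone 2, against 7.18 FPKM in wild type, and under control siRNA 16.3 and 23.6 FPKM, against 7.56 FPKM. All 4 clone libraries were above both wild-type libraries (0.93 ± 0.07 in clone 1, adjusted p = 0.00301; 1.41 ± 0.07 in clone 2, adjusted p = 0.000544). COL17A1 had 383 and 498 FPKM under PRL1 siRNA, against 239 FPKM, and 300.1 and 416 FPKM under control siRNA, against 215 FPKM (0.58 ± 0.06, adjusted p = 0.00512; 1.00 ± 0.06, adjusted p = 0.000764). COL5A2, by contrast, passed in clone 1 (0.31 ± 0.06, adjusted p = 0.0285) and not in clone 2 (-0.05, adjusted p = 0.564), so that its ratio to COL5A1 was 34.6 and 47.1 in clone 1 under PRL1 siRNA and control siRNA, 19.4 and 25.2 in clone 2, and 57.4 and 76.3 in wild type.

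Collagens of low level went in both directions. COL11A2, a fibrillar chain best known from cartilage, was lower in both clones: it had 0.753 FPKM in clone 1 and 1.29 FPKM in clone 2 under PRL1 siRNA, against 2.55 FPKM in wild type, and 0.836 and 1.26 FPKM under control siRNA, against 2.19 FPKM (-0.91 ± 0.09 in clone 1, adjusted p = 0.005; -0.56 ± 0.09 in clone 2, adjusted p = 0.00935). COL7A1, which forms the anchoring fibrils below the basement membrane, was lower in clone 1 (-0.66 ± 0.08, adjusted p = 0.0074), as was COL5A3 (-0.88 ± 0.15, adjusted p = 0.0182). COL5A3 averaged under 0.5 FPKM in clone 1, was included through the lines where it was higher, and was not tested with a filter at 1 FPKM. COL6A1, COL12A1 and COL9A2 were higher in clone 2 (1.03 ± 0.11, 1.02 ± 0.22 and 0.50 ± 0.13; adjusted p = 0.00321, 0.0227 and 0.0396), and COL21A1 was lower there (-0.50 ± 0.07, adjusted p = 0.00848). COL12A1 in clone 2 was uneven, at 1.26 FPKM under PRL1 siRNA and 3.37 FPKM under control siRNA, against 0.487 and 0.608 FPKM in wild type. COL18A1, a basement membrane collagen whose end fragment is endostatin, and COL28A1 passed in neither clone.

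Among laminins, LAMC1 and LAMB1 were slightly higher in both clones. LAMC1 was higher by 0.22 ± 0.04 in clone 1 and 0.32 ± 0.04 in clone 2 (adjusted p = 0.0202 and 0.00519), and LAMB1 by 0.20 ± 0.05 and 0.31 ± 0.05 (0.0474 and 0.0111). In clone 1, the LAMB1 call was lost whichever library was left out. That of LAMC1 in clone 1 then held only without the wild-type control library. LAMA3 was higher in clone 2 (1.14 ± 0.19, adjusted p = 0.0119), at 123 FPKM under PRL1 siRNA and 69.4 FPKM under control siRNA, against 40.7 and 42.1 FPKM in wild type. In clone 1, LAMA3 did not pass (0.16, adjusted p = 0.595), and the clones differed by 0.99 ± 0.19 (clone 2 minus clone 1, adjusted p = 0.0342). LAMB3 passed in neither (-0.38 in clone 1 and 0.43 in clone 2, adjusted p = 0.114 and 0.077), while clone 2 was above clone 1 by 0.81 ± 0.14 (adjusted p = 0.0261). LAMA5 and LAMB2 did not pass in either clone.

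ITGB6 was higher in both clones. Under PRL1 siRNA it had 91.5 FPKM in clone 1 and 145 FPKM in clone 2, against 40.8 FPKM in wild type. Under control siRNA it had 82.3 and 114 FPKM, against 46.8 FPKM. Every clone library was above both wild-type libraries (0.97 ± 0.12, adjusted p = 0.00896; 1.54 ± 0.12, adjusted p = 0.00179). Within the ITGAV group, ITGAV and ITGB8 passed in clone 2 (0.38 ± 0.05 and 0.38 ± 0.06; adjusted p = 0.00623 and 0.0116), and ITGB3 and ITGB5 passed in neither clone. The ratio of ITGB6 to ITGB8 was 1.16 and 1.43 in clone 1 under PRL1 siRNA and control siRNA, 1.51 and 1.67 in clone 2, and 0.596 and 0.824 in wild type.

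The collagen receptor subunits ITGA1 and ITGA2 went in opposite directions. ITGA1 had 0.881 FPKM in clone 1 and 2.66 FPKM in clone 2 under PRL1 siRNA, against 0.371 FPKM in wild type, and 1.33 and 4.75 FPKM under control siRNA, against 0.537 FPKM. The clones lay above wild type in every library (0.53 ± 0.13, adjusted p = 0.0433; 1.66 ± 0.13, adjusted p = 0.00173). The wild-type mean of ITGA1 was below 0.5 FPKM, so it was included through the clones, where it was higher. ITGA2, far higher in level, had 62.4 and 67.4 FPKM in clones 1 and 2 under PRL1 siRNA, against 79.2 FPKM in wild type, and 67.4 and 65.2 FPKM under control siRNA, against 89.8 FPKM. It was lower in both clones without overlap (-0.37 ± 0.06, adjusted p = 0.0166; -0.34 ± 0.06, adjusted p = 0.0149).

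ITGA5, the fibronectin receptor subunit, was lower in clone 1 alone: it had 1.39 FPKM in clone 1 and 5.58 FPKM in clone 2 under PRL1 siRNA, against 5.28 FPKM in wild type, and 1.68 and 4.99 FPKM under control siRNA, against 4.47 FPKM. Clone 1 differed from wild type by -1.21 ± 0.10 (adjusted p = 0.00406), and clone 2 did not pass (0.10, adjusted p = 0.51). Between the clones the difference was 1.31 ± 0.10 (clone 2 minus clone 1, adjusted p = 0.00328). Over all members, 15 of 36 differed between the clones (41.7%, against 13.1% of all genes), 10 higher and 5 lower in clone 2 (6.45% and 6.67% of all genes).

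ITGB1 and ITGB4, the most abundant subunits, were modestly higher in both clones. ITGB1 had 217 to 222 FPKM in clone 1 and 210.2 to 221 FPKM in clone 2, against 168 to 172 FPKM in wild type (0.37 ± 0.04 and 0.34 ± 0.04; adjusted p = 0.00778 and 0.00585). ITGB4 was higher by 0.31 ± 0.06 and 0.22 ± 0.06 (adjusted p = 0.0207 and 0.0421), whereas its partner ITGA6 was lower in clone 2 (-0.23 ± 0.06, adjusted p = 0.0451). ITGA3 was also lower in clone 2 (-0.16 ± 0.04, adjusted p = 0.0451), as was ITGB2, the common beta subunit of leukocyte integrins, at 0.811 FPKM against 2.23 FPKM in wild type under PRL1 siRNA and 0.851 against 1.74 FPKM under control siRNA (-0.70 ± 0.09, adjusted p = 0.00638). The clone 2 calls of ITGA6 and ITGA3 were lost whichever library was left out. That of ITGB4 in clone 2 then held only without the wild-type PRL1 siRNA library.

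Over the 4 clone libraries and 2 wild-type libraries, 11 members were higher without overlap (30.6%, against 16.6% of all genes) and 7 were lower without overlap (19.4%, against 11.4%), against 28.0% of all genes in either direction. The clone calls, among members as among all genes, depended on both libraries of a clone. Over all genes, 3006 passed in clone 1, with 186 and 277 left without its PRL1 siRNA library and without its control library. In clone 2, 3966 passed, with 1357 and 1471 left. Without the wild-type PRL1 siRNA and control libraries, 1375 and 1668 of all genes passed in clone 1, and 2405 and 2885 in clone 2. Without its control library, 5 of the 17 calls of clone 1 held (COL4A2, COL5A1, COL17A1, COL11A2 and ITGA5), and without its PRL1 siRNA library 3 held (COL4A2, COL5A1 and ITGA5); 12 held without each wild-type library in turn. Of the 22 calls of clone 2, 13 held without its control library, 11 without its PRL1 siRNA library, and 18 and 15 without the wild-type PRL1 siRNA and control libraries. Those lost without the PRL1 siRNA library included LAMA3, LAMC1, ITGB1 and ITGB8, while COL4A2, COL5A1, COL17A1, ITGA1 and ITGB6 held without either library of clone 2.

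Taken under control siRNA alone, with 2 clones against 1 wild-type library in a fit of 4 groups, 0 of 36 members passed limma, against 4 of 13356 genes (0.0299%). At an unadjusted p under 0.05 there were 10 members and 1734 genes. This fit assumes that the lone wild-type library varies like the clones, and the clones differ from each other. The differences were 1.57 ± 0.36 for COL4A2, 1.27 ± 0.31 for COL5A1, 1.25 ± 0.72 for ITGA1, 1.04 ± 0.36 for ITGB6, 0.91 for COL12A1, 0.71 for COL17A1, 0.65 for COL4A1 and -0.65 for COL11A2, and the lowest adjusted p among the first 4 was 0.299. The additive fit of both clones together over both siRNAs called 24 members, 17 higher and 7 lower (66.7%, against 30.3% of all genes). There each clone has its own term, so the difference between the clones is not part of the spread. These calls therefore describe the 2 clones and say nothing on other clones of the genotype. Under PRL1 siRNA 0 members and 0 genes passed, with 10 members and 1920 genes at an unadjusted p under 0.05.

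**Figure D4:**
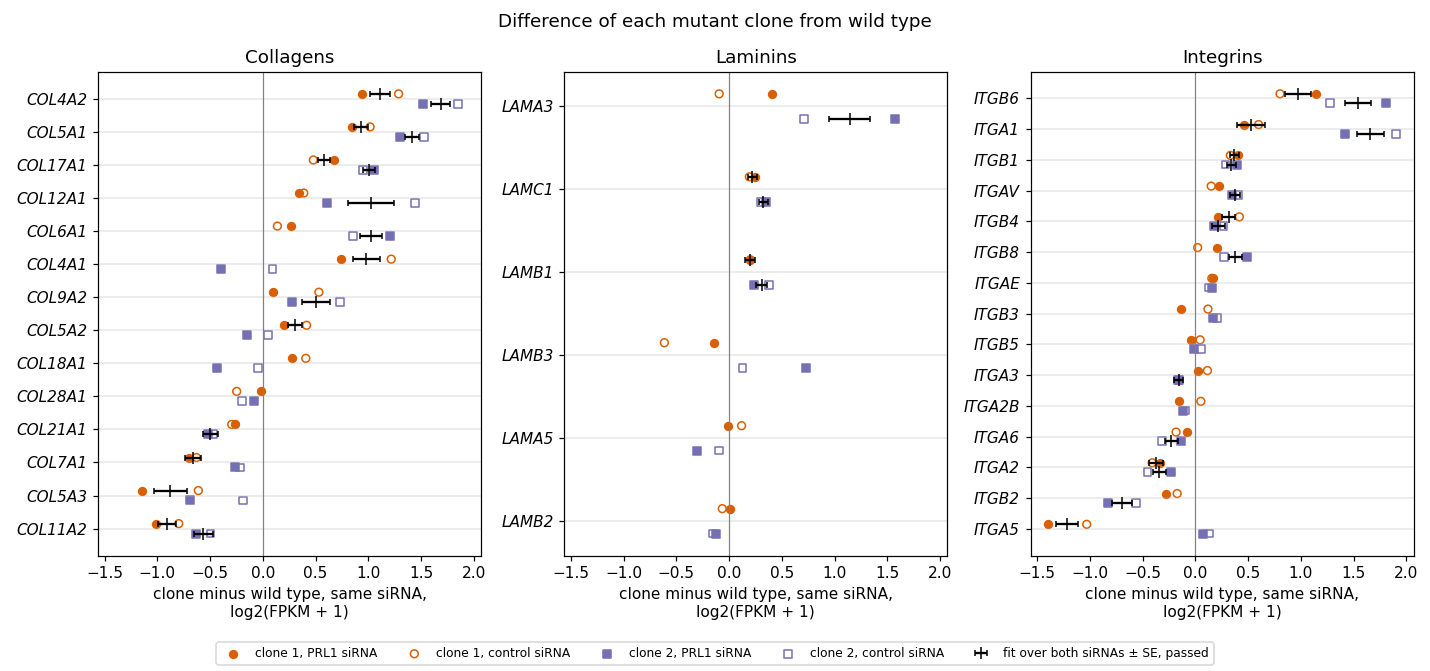
Difference between each clone and wild type under the same siRNA, on the log2(FPKM + 1) scale. Filled symbols are PRL1 siRNA, open symbols control siRNA, and black marks with bars are fitted differences over both siRNAs ± SE for members that passed in that clone. COL4A2, COL5A1, COL17A1, ITGB6 and ITGA1 lie right of 0 in both clones, COL4A1 passed in clone 1 and LAMA3 in clone 2, and ITGA5 lies far left of 0 in clone 1.

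**Figure D5:**
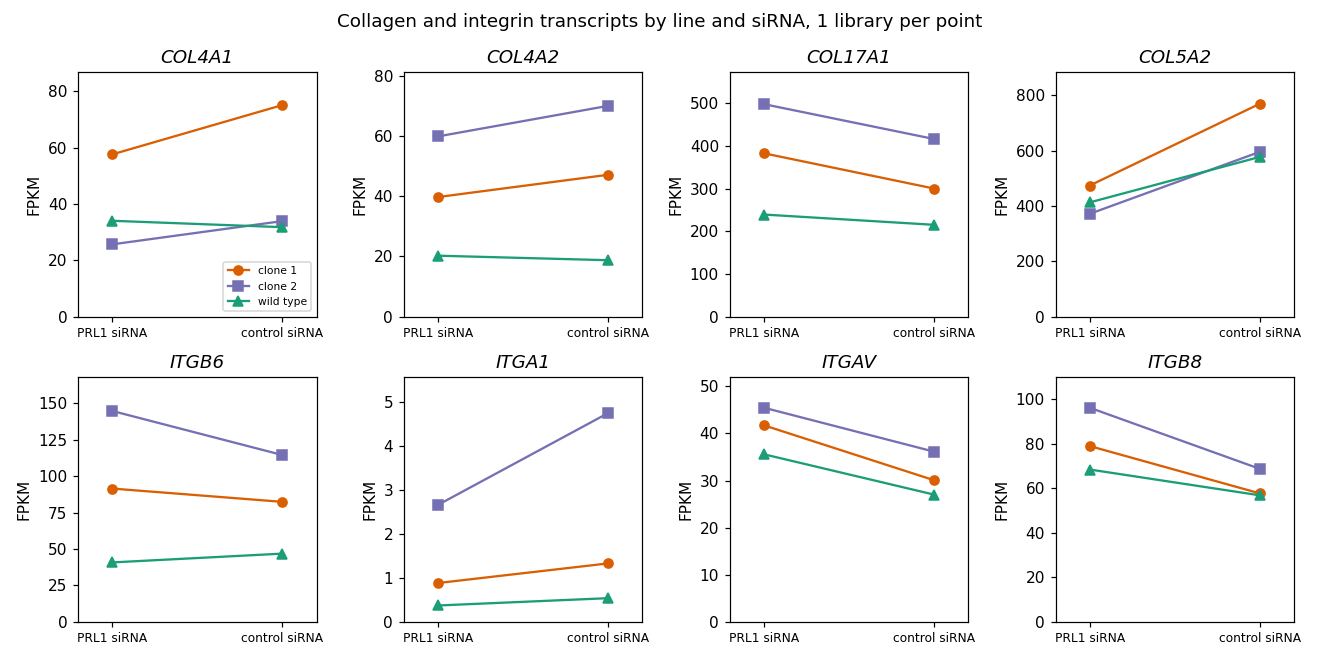
FPKM of 4 collagens and 4 integrin subunits (vertical axes from 0) under PRL1 siRNA and control siRNA. Each point is 1 library and lines join the libraries of 1 cell line. COL4A1 separates clone 1 from the other lines and COL4A2 separates both clones from wild type.

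Genes that work beside the members were described from 4 lists. Of 26 measured genes of collagen processing, 13 passed after PRL1 siRNA, 9 higher and 4 lower, or 50%, against 35.7% of all genes. LOX, the enzyme that cross-links collagen, fell to 178, 147 and 86.6 FPKM in clone 1, clone 2 and wild type, against 250.2, 199 and 156 FPKM under control siRNA (-0.59 ± 0.08, adjusted p = 0.00708). PLOD2, a lysyl hydroxylase, and FKBP14, a collagen chaperone, rose by 0.46 ± 0.04 and 0.51 ± 0.10 (adjusted p = 0.0027 and 0.0187). The 2 most abundant, PPIB and P4HB, did not pass (-0.09 and -0.06, adjusted p = 0.113 and 0.193). In the clones, P3H2, a prolyl hydroxylase of type IV collagen, was higher by 0.79 ± 0.07 in clone 1 and 0.87 ± 0.07 in clone 2 (adjusted p = 0.0039 and 0.00161), among 6 higher and 2 lower in clone 1 (30.8%, against 22.5% of all genes) and 9 higher and 0 lower in clone 2 (34.6%, against 29.7%).

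Of 19 other basement membrane and matrix genes, 4 were higher and 4 lower after PRL1 siRNA (42.1%, against 35.7% of all genes). CCN1, a matrix-associated integrin ligand, had 52.1, 39.3 and 41.4 FPKM under PRL1 siRNA, against 196, 167 and 99.8 FPKM under control siRNA, in clone 1, clone 2 and wild type, with no overlap (-1.73 ± 0.16, adjusted p = 0.00277). THBS1, an adhesive glycoprotein, fell by 0.98 ± 0.17 (adjusted p = 0.0127), NPNT, a ligand of the kidney integrin ITGA8, by 0.43 ± 0.05 (0.00445) and TINAGL1 by 0.40 ± 0.07 (0.0118), while AGRN did not pass (0.10, adjusted p = 0.214). ITGA8 itself was listed at 0 in every library. HSPG2 and TINAG were among the 4 genes of this list that rose, by 0.34 ± 0.05 and 0.42 ± 0.05 (adjusted p = 0.00947 and 0.00417). NPNT was higher in both clones (0.98 ± 0.06 and 1.80 ± 0.06; adjusted p = 0.00217 and 0.00027), as was THBS1 (1.14 ± 0.21 and 1.44 ± 0.21; 0.022 and 0.00835). In clone 1, 4 genes of this list were higher and 4 lower (42.1%, against 22.5% of all genes), and in clone 2, 6 and 5 (57.9%, against 29.7%).

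Of 14 other matrix receptors, 5 were higher and 0 lower after PRL1 siRNA (35.7%, the same share as of all genes, 35.7%). BCAM, a receptor for LAMA5, had 173, 118 and 137 FPKM under PRL1 siRNA, against 128, 85.8 and 91.8 FPKM under control siRNA (0.49 ± 0.04, adjusted p = 0.00253), and the tetraspanins CD81 and CD151, which associate with integrins, rose by 0.59 ± 0.07 and 0.30 ± 0.03 (adjusted p = 0.00497 and 0.00438). CD9 and CD47 did not pass (0.18 and 0.14, adjusted p = 0.0537 and 0.0544). In the clones, CD47 was lower in both (-0.32 ± 0.05 and -0.35 ± 0.05; adjusted p = 0.0146 and 0.00812), and SDC1, a syndecan of epithelia, was higher in clone 2 (0.65 ± 0.11, adjusted p = 0.0106). In clone 1, 3 were higher and 2 lower (35.7%, against 22.5% of all genes), and in clone 2, 7 and 2 (64.3%, against 29.7%).

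Of 39 measured adaptors and signalling proteins of integrin adhesions, 8 were higher and 6 lower after PRL1 siRNA (35.9%, near the 35.7% of all genes). FERMT2 (kindlin-2), which activates integrins together with talin, and LIMS1, a partner of integrin-linked kinase, fell by 0.58 ± 0.05 and 0.43 ± 0.04 (adjusted p = 0.00294 and 0.00305). PTK2B and CIB1 rose by 0.32 ± 0.05 and 0.24 ± 0.04 (adjusted p = 0.0118 and 0.0115), and ACTN4 did not pass (0.12, adjusted p = 0.0868). In clone 1, 14 were higher and 0 lower (35.9%, against 22.5% of all genes, 14.6% higher and 7.92% lower), and in clone 2, 13 higher and 1 lower (35.9%, against 29.7%, 17.0% higher and 12.7% lower). FLNA, an actin cross-linker that binds integrin tails, was higher by 0.54 ± 0.05 and 0.21 ± 0.05 (adjusted p = 0.00392 and 0.0236), and ACTN1 by 0.56 ± 0.05 and 0.38 ± 0.05 (0.00493 and 0.00744).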

How the data were processed

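The deposited values are FPKM per gene symbol, computed by the authors, 1 value per library. The submitters' processing notes name HISAT2 2.1.0, Cufflinks 2.2.1 and Cuffdiff. No build, gene annotation or strand setting is stated there, so overlapping or antisense genes may share fragments. Groups were taken from the labels. Differences were computed on log2(FPKM + 1), which understates changes of low genes, for 13356 genes whose mean reached 0.5 FPKM. limma 3.58.1 in R 4.3.3 (empirical Bayes with trend) was fitted across all of them with line and siRNA as additive terms, or with 4 groups for the interaction and the control siRNA comparison, with Benjamini-Hochberg adjustment at 0.05. Libraries were paired by cell line; deviations of a clone's 2 libraries from their group means correlated across genes at r = 0.587. No pair of libraries held identical values. Scripts were tested on simulated data. Genes named were the members passing the knockdown test, the 8 largest differences of each clone comparison, the most abundant members of each family, known complexes, and up to 5 genes per other list. The members and lists were chosen with earlier results of these data known. COL9A2, COL18A1, COL28A1, single members beyond the rule, and HSPG2 and TINAG were named after their values were seen. The comparison between the clones was added after seeing the data. Values of some genes are not reported here, though they stand in the counts. RefSeq names (UU_Cfam_GSD_1.0) held all 77 symbols.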

Additional observations from a re-analysis of the deposited data

How the results depend on the processing

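After PRL1 siRNA, 14 members passed; a pseudocount of 0.1, a filter at 1 FPKM, limma without trend and median-centred libraries gave 12 or 13. With no filter 3 passed (LAMC1 and ITGAV among them), with no replicate block 0, and leaving out 1 library or line 5 to 16. Over all genes, the settings that gave 12 or 13 members called 33.2% to 39.3%. Of all genes, 4.22% passed with no filter and 2.68% with no replicate block, against 35.7% in the main fit. Leaving out 1 library or line gave 9.43% to 28.1% of all genes. For clone 1 against wild type, 17 passed, 0 with no filter (19 members and 6405 genes at an unadjusted p under 0.05) and 3 to 15 without 1 library. For clone 2, 22 passed, 6 with no filter and 11 to 19 without 1 library. Between the clones, 15 passed, 0 with no filter (23 members at an unadjusted p under 0.05) and 1 to 18 without 1 library. The no-filter fits test more genes, many of them at or near 0. Over all genes they called 0 in clone 1, 4.65% in clone 2 and 0.0143% between the clones. With the filter these shares were 22.5%, 29.7% and 13.1%. Without 1 library of the lines compared, fewer of all genes passed too. The fits without 1 library called 1.39% to 14.3% of all genes in clone 1 and 10.2% to 21.6% in clone 2. Between the clones they called 1.96% to 15%. For the clones under control siRNA, 0 passed, and 24 in the additive fit over both siRNAs (17 higher and 7 lower; 30.3% of all genes); the interaction gave 0 in each fit that could be made. Without 1 library, ITGB6 after PRL1 siRNA (0.10) ranged from -0.023, without clone 2, to 0.24, and COL4A1 in clone 2 (-0.15) from -0.39 to 0.089, the last without the wild-type PRL1 siRNA library. Neither passed with all libraries, and the cause was not tested. Fits without the wild-type control library could not be made for the control siRNA comparison or the interaction. FPKM carry no fragment counts, so values near 0.5 FPKM have an unknown counting error.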
